A study of Arabidopsis thaliana with 9 samples.

Results

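The chloroplast and the mitochondrion each keep a small genome of their own, and the ATH1 array carries probe sets for both. These probe sets were chosen by their number, as the block of the array's numbering set aside for organelle genes. The rule uses no measured value, but it was set with earlier results of these data known. They numbered 126 of the 22746 probe sets tested, 105 with the suffix _at and 21 with the suffix _s_at. Matching the genes of the platform annotation to a RefSeq gene table placed 73 of them on the chloroplast genome and 12 on the mitochondrial genome. All 12 mitochondrial ones were matched by gene symbol or synonym, looked up among organelle genes alone. Another 5 were annotated to nuclear genes of chromosome 2, 1 was paired with several genes whose genome was not settled, and 35 had no annotation here and are given by probe set ID or by count. Of the 73 chloroplast probe sets, 65 had 1 gene and 8 had several entries. Those with several entries, which repeat 1 gene symbol, are also given by ID.

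RNA came from root tips of Cvi, of L*er*, which the labels write as L*er*-2, and of the near isogenic line 170G-55-16, also called HGI2.1 and written NIL below, with 3 arrays per genotype. Each array held a pool of about 600 root tips, 7 mm long, from 5-day-old seedlings that had spent 2 days upright and 3 days tilted back by 30° on hard agar. Plants of all 3 genotypes received the same handling, with no compound added. They were stratified for 8 days and grown at 22 °C with 16 h of light and 8 h of dark. Which introgressed segments the NIL carries, and which parent gave it its chloroplasts and mitochondria, are not given in the sources used here.

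Chloroplast genes encode subunits of the photosystems, the cytochrome b6f complex, the NDH complex and the ATP synthase, together with ribosomal proteins and the core of a plastid RNA polymerase. Mitochondrial genes encode subunits of the respiratory chain and factors that assemble cytochrome c. In Arabidopsis both genomes usually pass through the mother, many chloroplast genes are transcribed together with their neighbours, and root cells hold non-green plastids. Organelle RNAs mostly lack the stable poly(A) tail of nuclear messages, so the signal of a probe set is read here as hybridization and not as an amount of RNA, and no probe set is set against another as an amount.

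Of the 9 arrays, Cvi replicate 1 correlated less with its fellow Cvi arrays (r = 0.978 and 0.980 over all probe sets, as a description) than any other pair of replicates of 1 genotype (0.9961 to 0.9977). The difference between the 3′ and 5′ actin controls was 0.89 to 1.10 on the log2 scale in L*er* and the NIL but −2.65 to −2.10 in Cvi, and that of ubiquitin was 0.105 to 0.264 against 0.518 to 0.745. That of GAPDH was −0.26 to −0.08 in L*er* and the NIL and −0.01 to 0.04 in Cvi. Their part in the results for Cvi was not tested. None of the 11 root cap and meristem markers and none of the 16 nuclear photosynthesis genes listed to check the tissue had a named probe set in the annotation used, so the labelled tissue could not be checked.

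Over the 126 together, the organelle signal was lowest in the NIL and highest in Cvi. The chloroplast probe sets had the same order and were furthest apart, while the mitochondrial and unannotated ones were lowest in L*er*. The array median of the 73 chloroplast probe sets was 6.09 ± 0.20 on the log2 scale in L*er*, 5.71 ± 0.28 in the NIL and 6.41 ± 0.25 in Cvi (mean ± SD of 3 array medians). Single arrays of L*er* overlapped those of both other genotypes, and those of the NIL and Cvi did not overlap. For the 12 mitochondrial probe sets the same value was 4.71 ± 0.06 in L*er*, 4.73 ± 0.08 in the NIL and 4.80 ± 0.07 in Cvi, with overlap between all 3. Over all 126 it was 5.10 ± 0.20, 4.90 ± 0.12 and 5.28 ± 0.01, while over all probe sets of the array it was 6.87 ± 0.06, 6.80 ± 0.03 and 6.82 ± 0.02. In such pools, fewer cells of a type and less RNA per cell cannot be told apart.

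Many organelle probe sets were dim. The dim class used here is the 33.3% of the array with the lowest mean signal, up to a log2 signal of 5.37, and 66 of the 126 fell in it, among them 26 chloroplast, 8 mitochondrial and 29 unannotated ones. The brightest were *atpB* and *atpE*, which encode the beta and epsilon subunits of the chloroplast ATP synthase, at means of 11.15 and 10.99 over the 9 arrays, then 244987_s_at at 10.97, *rps4* of the small ribosomal subunit at 10.36 and *ccmFN1*, a mitochondrial cytochrome c maturation factor, at 10.24. The dimmest were 244990_s_at at 2.73, *ndhF* of the NDH complex at 2.91, *atpI* of the ATP synthase membrane part at 2.93, 244931_at at 2.96 and 244911_at at 3.01. Whether a dim probe set lies above background is not known, since detection calls were not used here.

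The spread between replicates set how far single genes could be read. The median SD of a chloroplast probe set was 0.196 in L*er*, 0.212 in the NIL and 0.228 in Cvi, against 0.108, 0.101 and 0.204 over all probe sets of the array. L*er* replicate 2 lay above both its fellows at 58 of the 73 chloroplast probe sets (79.5%) and L*er* replicate 3 below both at 60 (82.2%), in the same direction as the whole array, where the shares were 56.2% and 52.4%. NIL replicate 3 lay below both its fellows at 55 of the 73 (75.3%), while over the whole array it was below both at 27.6% and above both at 39.5%. Cvi replicate 1 lay above both at 45 of the 73 (61.6%), while over the whole array it was above both at 38.5% and below both at 47.7%.

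**Figure D1:**
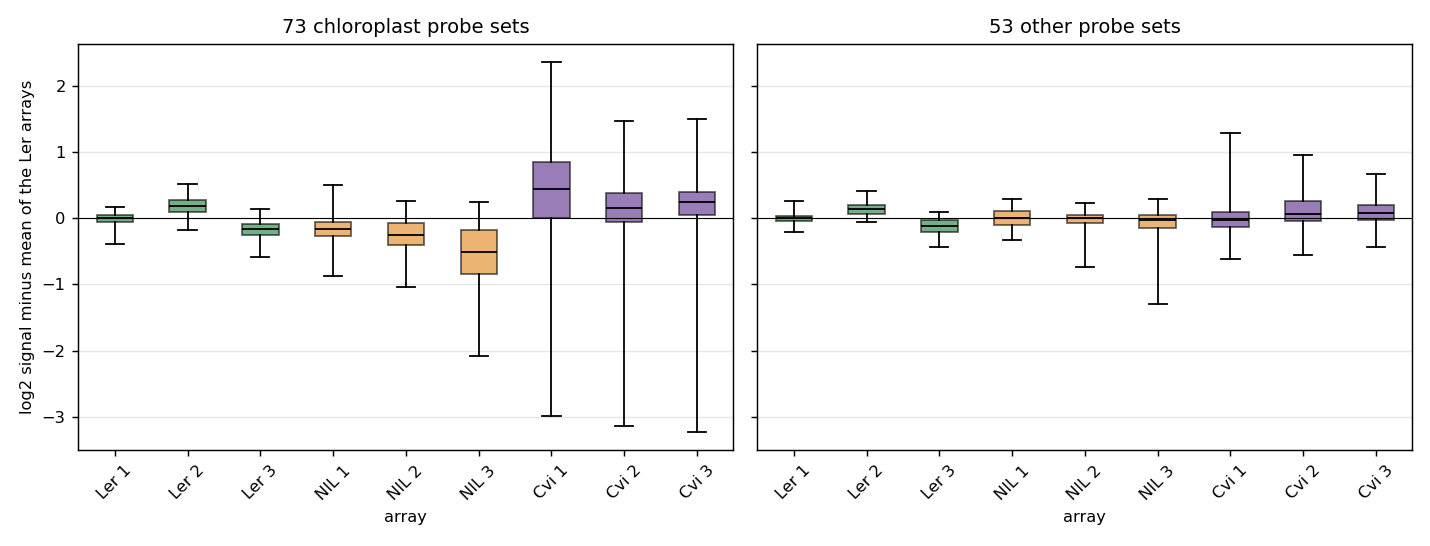
Log2 signal of each probe set minus its mean over the 3 L*er* arrays, by array, for the 73 chloroplast probe sets (left) and the 53 other organelle probe sets (right). Boxes span the quartiles with the median as a line and whiskers reach the lowest and highest probe set. The chloroplast medians were −0.17, −0.25 and −0.51 on the 3 NIL arrays and 0.44, 0.15 and 0.24 on the 3 Cvi arrays.

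The arrays farthest from their fellows were all NIL replicate 3. On it 244992_s_at stood at 5.86 against 7.53 and 7.08 on the other NIL arrays, 244993_s_at at 6.98 against 8.71 and 8.07, and *psaI*, which encodes a small subunit of photosystem I, at 4.65 against 6.16 and 5.90. Each fell short of the mean of its fellows by more than 1.3 on the log2 scale, at 1.44, 1.41 and 1.38.

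The first comparison, Cvi against L*er*, asked how the organelle transcripts of the parental accessions differed. A limma fit on all 9 arrays called 15 of the 126 at a Benjamini-Hochberg adjusted p under 0.05 (11.9%), and 13.0% of all probe sets were called, so the share was near that of the whole array. There were 8 higher in Cvi, where the array as a whole gave 5.75%, and 7 lower, where it gave 7.27%. With a fold of at least 2 as well, 9 remained, 6 lower and 3 higher, against 3.88% of the array. The arrays of Cvi and L*er* did not overlap at 36 of the 126, against 27.2% of the array. Of the 15 called, 14 were chloroplast genes and 1 was the unannotated 244913_at. Without L*er* replicate 1 the count was 8 and without L*er* replicate 3 it was 7, where 8.05% and 8.19% of the array were called. With Cvi replicate 1 and NIL replicate 3 both left out, a choice made after seeing the data, it was 24, where the whole array gave 23.5%. The median difference was 0.15 over the 126, 0.29 over the chloroplast probe sets and 0.12 over the mitochondrial ones, beside 0.01 over all probe sets, and 60 of the 73 chloroplast probe sets lay above 0. Over the 126 it was 0.24 without L*er* replicate 2 and 0.07 without L*er* replicate 3.

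The largest differences were decreases in Cvi, in genes of the NDH complex and of photosystem II. *ndhI*, which encodes a subunit of the NDH complex that returns electrons to the photosynthetic chain, had log2 signals of 9.57, 9.79 and 9.42 in L*er*, 9.65, 9.21 and 9.15 in the NIL and 6.94, 6.45 and 6.37 in Cvi. The 3 Cvi arrays lay far below all others, and those of L*er* and the NIL overlapped. The signal was 8.05-fold lower in Cvi than in L*er* (log2 difference −3.01, SE 0.183, limma adjusted p = 1.907e-06). *ndhA*, its neighbour and another subunit of that complex, read 7.31, 7.70 and 7.24 in L*er*, 7.09, 7.08 and 6.78 in the NIL and 5.40, 4.82 and 4.66 in Cvi. Its Cvi arrays were again the lowest, and its NIL arrays lay just under those of L*er* without overlap. The log2 difference between Cvi and L*er* was −2.46 (SE 0.196, limma adjusted p = 1.58e-05), a 5.48-fold decrease. The genes that flank the pair, *ndhG* and *ndhH*, were not called, at 0.32 and −0.28. Both fell in the dim class, so their lack of a call does not mark an end of the decrease.

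*psbM*, a small subunit of photosystem II, had the second-largest decrease, between those of *ndhI* and *ndhA*. It read 8.49, 9.12 and 9.02 in L*er*, 9.37, 9.04 and 8.48 in the NIL and 5.89, 6.22 and 6.24 in Cvi, where all 3 arrays were low. The signal was 6.78-fold lower in Cvi than in L*er* (log2 difference −2.76, SE 0.230, limma adjusted p = 2.189e-05). Neither *petN* nor *psbD*, the genes on either side of it, was called, at 0.21 and 0.47.

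The other genes of photosystem II that fell in Cvi stand side by side on the chloroplast genome, in the order *psbJ*, *psbL*, *psbF* and *psbE*. *psbE* and *psbF* encode the subunits of cytochrome b559, and *psbJ* and *psbL* encode further small subunits. *psbJ* had log2 signals of 7.40, 7.28 and 7.53 in L*er*, 6.97, 7.35 and 6.69 in the NIL and 6.07, 5.78 and 5.76 in Cvi. *psbE* had 8.30, 8.36 and 7.97 in L*er*, 7.91, 7.91 and 7.57 in the NIL and 7.06, 7.00 and 6.88 in Cvi, and *psbF* had 8.54, 8.63 and 8.29, then 8.16, 8.22 and 8.16, then 7.48, 7.31 and 7.44. In all 3 genes every Cvi array lay below every other array. The log2 differences from L*er* were −1.54 (SE 0.164, limma adjusted p = 0.0001298) for *psbJ*, −1.23 (SE 0.137, adjusted p = 0.0001754) for *psbE* and −1.08 (SE 0.111, adjusted p = 0.0001005) for *psbF*. *psbL* differed least, with 5.85, 5.86 and 6.06 in L*er*, 5.75, 5.86 and 5.74 in the NIL and 5.47, 5.41 and 5.70 in Cvi. Its difference of −0.40 passed the limma test (SE 0.112, adjusted p = 0.0424) but missed it under 11 of 17 alternatives. Among these were any 1 of 7 arrays left out, a replicate block and a trended and robust variance model. Without L*er* replicate 3 it was −0.33, with an adjusted p of 0.1637. The genes that flank the 4, *petA* and *petL*, were not called, at 0.24 and 0.06. *petL* fell in the dim class at a mean log2 signal of 3.49, so its lack of a call does not mark an end of the run.

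**Figure D2:**
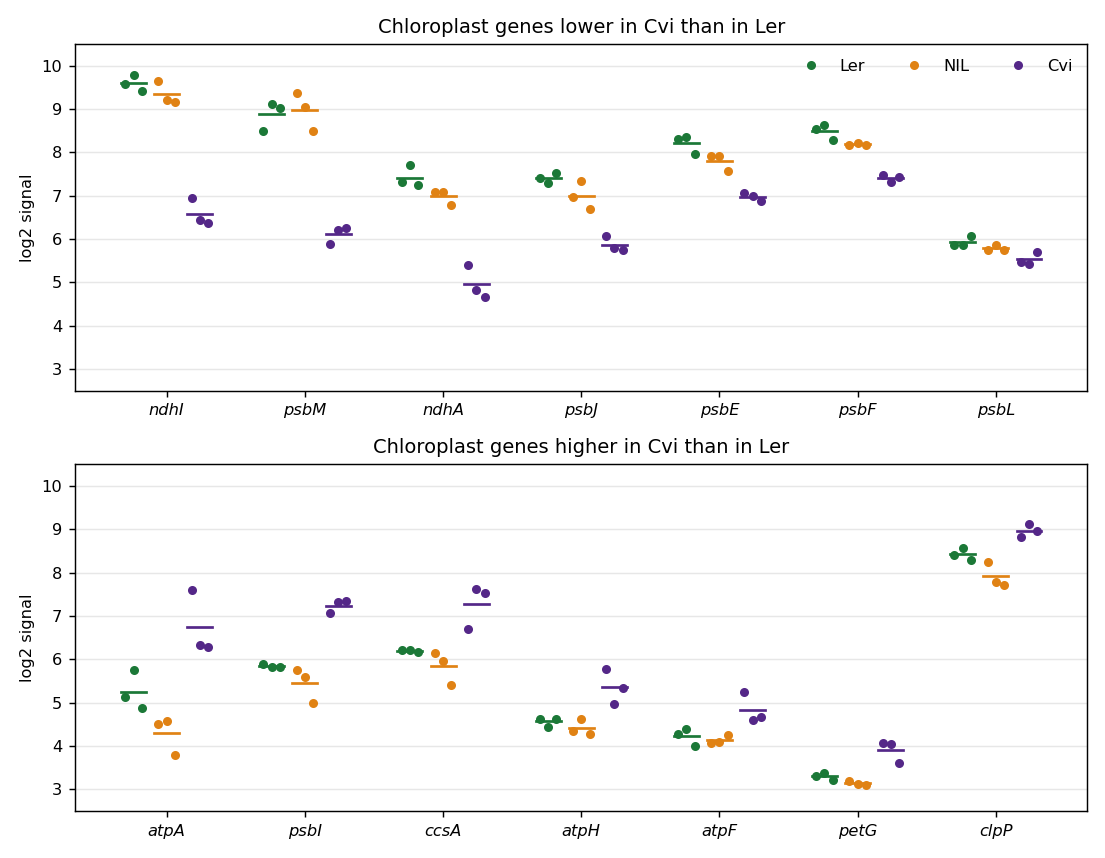
Log2 signal on each array for the 14 named chloroplast genes that were called between Cvi and L*er*, the 7 lower in Cvi above and the 7 higher below. Points are the 3 arrays of L*er* (green), the NIL (orange) and Cvi (purple), and short lines are their means. In every gene shown the Cvi points lie clear of the L*er* points, and in *ndhI*, *psbM* and *ndhA* the Cvi mean lies more than 2 log2 units below that of L*er*.

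Increases in Cvi were smaller, and 4 of the 7 chloroplast genes concerned also stand side by side, *psbI*, *atpA*, *atpF* and *atpH*. *atpA* encodes the alpha subunit of the ATP synthase, *atpF* and *atpH* encode subunits of its membrane part, and *psbI* encodes a small subunit of photosystem II. *psbI* read 5.90, 5.82 and 5.82 in L*er*, 5.76, 5.60 and 5.00 in the NIL and 7.06, 7.31 and 7.34 in Cvi. All Cvi arrays were above all others, and the difference from L*er* was 1.39 (SE 0.176, limma adjusted p = 0.0004101). *atpA* read 5.13, 5.76 and 4.87 in L*er*, 4.52, 4.59 and 3.78 in the NIL and 7.60, 6.32 and 6.29 in Cvi. Here the 3 genotypes did not overlap, with the NIL lowest and Cvi replicate 1 well above its fellows. The difference between Cvi and L*er* was 1.49 (SE 0.364, limma adjusted p = 0.02198), and 1.06 without Cvi replicate 1. It missed the test without L*er* replicate 1 (1.42, adjusted p = 0.08825) and without L*er* replicate 3 (1.29, adjusted p = 0.1057).

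*atpH* and *atpF* both fell in the dim class. *atpH* read 4.63, 4.45 and 4.63 in L*er*, 4.35, 4.62 and 4.27 in the NIL and 5.76, 4.96 and 5.33 in Cvi, a difference of 0.79 from L*er* (SE 0.184, limma adjusted p = 0.01753). *atpF* read 4.27, 4.38 and 4.00 in L*er*, 4.07, 4.10 and 4.24 in the NIL and 5.24, 4.61 and 4.68 in Cvi, a difference of 0.62 (SE 0.169, limma adjusted p = 0.03607). In both, Cvi lay above L*er* and the NIL, which overlapped. *atpH* missed the test when any 1 of the L*er* arrays was left out (adjusted p of 0.05557 to 0.07419). *atpF* missed it under 10 of 16 alternatives, among them any 1 of the L*er* or NIL arrays left out, with adjusted p-values of up to 0.1523. Beyond *atpH* on the genome comes *atpI*, another membrane subunit, at −0.07 and not called. With a mean log2 signal of 2.93 it was among the dimmest members, so its lack of a call does not mark an end of the run. *psbK*, on the far side of *psbI*, had no named probe set.

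The remaining increases were in single genes. *ccsA*, needed to attach heme to chloroplast cytochromes, read 6.22, 6.22 and 6.16 in L*er*, 6.14, 5.97 and 5.41 in the NIL and 6.69, 7.62 and 7.53 in Cvi. The difference from L*er* was 1.08 (SE 0.245, limma adjusted p = 0.01454), and it was 1.38 without Cvi replicate 1, the lowest of the Cvi arrays here. It missed the test when any 1 of the L*er* arrays or Cvi replicate 3 was left out, at adjusted p-values of 0.05225 to 0.06272. *clpP*, the catalytic subunit of the Clp protease, read 8.41, 8.57 and 8.28 in L*er*, 8.25, 7.79 and 7.72 in the NIL and 8.83, 9.12 and 8.95 in Cvi (0.55, SE 0.153, limma adjusted p = 0.04079). *petG*, a small subunit of the cytochrome b6f complex, was dim at 3.30, 3.37 and 3.22 in L*er*, 3.20, 3.13 and 3.10 in the NIL and 4.06, 4.05 and 3.60 in Cvi (0.61, SE 0.130, limma adjusted p = 0.01075). In these 3 genes Cvi was above L*er* and L*er* above the NIL, with no overlap in any pair. The unannotated 244913_at read 4.99, 5.00 and 4.60 in L*er*, 4.92, 5.06 and 4.71 in the NIL and 5.59, 5.47 and 5.20 in Cvi (0.56, SE 0.151, limma adjusted p = 0.03596). *clpP* missed the test under 7 of 17 alternatives, among them any 1 of the L*er* arrays, NIL replicate 2, Cvi replicate 2 or Cvi replicate 3 left out (adjusted p of up to 0.1584). 244913_at missed it under 6 of 16, among them any 1 of the L*er* arrays, NIL replicate 1 or Cvi replicate 2 left out (up to 0.1446), and *petG* without L*er* replicate 3 (0.0535).

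By role, the calls between Cvi and L*er* over the 65 named chloroplast genes are set beside 13.0% of the whole array. Each group is small, so a group without calls cannot be told apart from that share. Photosystem II held 6 of its 13, 5 lower and 1 higher, the ATP synthase 3 of 6, all higher, the NDH complex 2 of 10, both lower, and cytochrome b6f 1 of 6. None of the 5 genes of photosystem I, the 14 ribosomal protein genes or the 4 genes of the plastid RNA polymerase was called, with median differences of 0.47, 0.25 and 0.24. None of the 12 mitochondrial genes was called by limma, against 13.0% of the array, and their differences ran from −0.27 to 0.41. At an unadjusted p under 0.05 stood 3 of the 12, against 24.9% of the array.

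**Figure D3:**
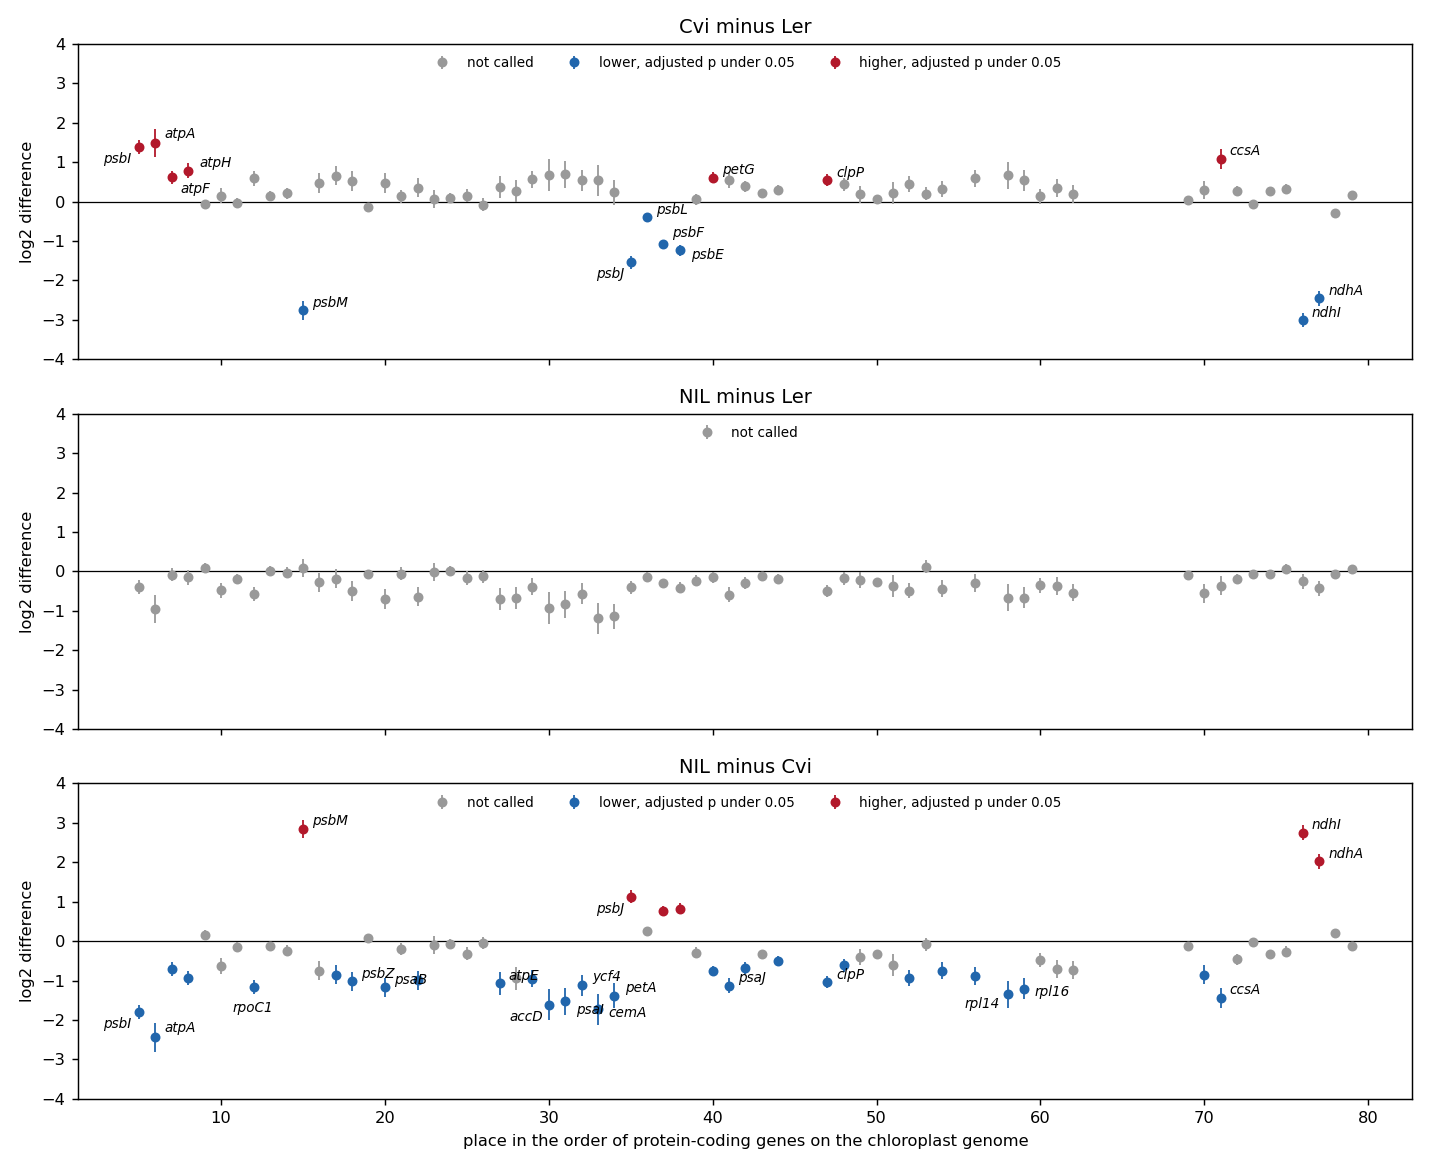
Log2 difference (vertical axis, error bars ± SE from the limma fit) of the named chloroplast genes in their order on the chloroplast genome (horizontal axis), for the 3 comparisons. Blue points were called lower, red points higher and grey points were not called, and in the bottom panel only called genes that differ by 1 or more carry a name. The 4 genes from *psbI* to *atpH* and the 4 from *psbJ* to *psbE* stand together in the top panel, and no gene is called in the middle one.

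The second comparison, the NIL against L*er*, asked how far the line departed from L*er*. No organelle probe set was called by limma, 0 of 126, where 0.356% of the array was called, 0.101% higher and 0.255% lower, and 0.189% with a fold of at least 2. At an unadjusted p under 0.05 there were 29, against 3.84% of the array. No call appeared either with quantile normalization or with the trended and robust variance model, and leaving out Cvi replicate 1 gave 1, the chloroplast probe set 244940_at. It read 7.31, 7.68 and 6.66 in L*er*, 6.44, 6.17 and 5.60 in the NIL and 7.58, 7.45 and 7.61 in Cvi. Its NIL arrays lay below all others, and the difference from L*er* was −1.15 (SE 0.258, limma adjusted p = 0.167, and SE 0.239 with adjusted p = 0.0409 without Cvi replicate 1).

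Although none was called, the fitted differences mostly ran downwards. They lay below 0 at 91 of the 126 and at 65 of the 73 chloroplast probe sets, with medians of −0.13 and −0.29 beside −0.02 over all probe sets. The NIL and L*er* arrays did not overlap at 31 of the 126, all with the NIL lower, against 13.6% of the array in either direction. The mitochondrial median was −0.04, with 7 of 12 below 0, and that of the unannotated probe sets was 0.01. NIL replicate 3, the lowest array of the series at the chloroplast probe sets, enters all of these values. The median over the 126 was −0.11 without it and −0.06 without L*er* replicate 2.

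Among named genes, the widest gaps between the NIL and L*er* lay in the neighbours *cemA* and *petA*. *cemA*, which encodes a protein of the inner envelope, read 7.77, 8.25 and 7.24 in L*er*, 6.88, 6.93 and 5.87 in the NIL and 9.05, 7.66 and 8.17 in Cvi, and its NIL arrays were below all others. The difference from L*er* was −1.19 (95% confidence interval −2.05 to −0.33, limma adjusted p = 0.7376). *petA*, which encodes cytochrome f, read 8.30, 8.55 and 7.88 in L*er*, 7.42, 7.51 and 6.36 in the NIL and 9.01, 8.33 and 8.10 in Cvi, a difference of −1.14 (−1.86 to −0.43, adjusted p = 0.4488). For the genes that fell furthest in Cvi the NIL gave other values. The difference of the NIL from L*er* was −0.25 for *ndhI* (95% confidence interval −0.66 to 0.15), 0.09 for *psbM* (−0.42 to 0.60) and −0.43 for *ndhA* (−0.86 to 0.01), and none passed the limma test.

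The third comparison, the NIL against Cvi, gave the most calls. It shares the Cvi arrays with the first comparison and the NIL arrays with the second, so its values are not independent of theirs. The limma fit called 43 of the 126 (34.1%), against 10.8% of the array. There were 37 lower in the NIL, where the array gave 5.61%, and 6 higher, where it gave 5.23%. A fold of at least 2 left 25, against 3.39% of the array. The arrays did not overlap at 66 of the 126, against 26.5%. Chloroplast probe sets made up 40 of the 43, with a median difference of −0.62 over all 73 and −0.20 over the 126, beside −0.02 over all probe sets. Without NIL replicate 3 the count was 22, of which 16 were lower and 6 higher, where 7.15% of the array was called.

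The 6 genes higher in the NIL were 6 of the 7 that were lower in Cvi than in L*er*. The limma differences between the NIL and Cvi were 2.85 for *psbM* (SE 0.230, adjusted p = 2.097e-05), 2.75 for *ndhI* (SE 0.183, adjusted p = 4.324e-06), 2.03 for *ndhA* (SE 0.196, adjusted p = 7.66e-05), 1.13 for *psbJ* (SE 0.164, adjusted p = 0.001249), 0.82 for *psbE* (SE 0.137, adjusted p = 0.003081) and 0.77 for *psbF* (SE 0.111, adjusted p = 0.001191). *psbL*, at 0.26, did not pass (limma adjusted p = 0.1978).

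Of the 7 chloroplast genes called higher in Cvi than in L*er*, all were lower in the NIL than in Cvi. The widest gaps were in *atpA*, at −2.44 (SE 0.364, limma adjusted p = 0.001501) or 5.43-fold, and in *psbI*, at −1.79 (SE 0.176, adjusted p = 8.587e-05) or 3.45-fold. Their array values, given above, did not overlap between the NIL and Cvi. *ccsA* followed at −1.45, *clpP* stood at −1.05, *atpH* at −0.94, *petG* at −0.76 and *atpF* at −0.70.

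A run of 6 neighbouring genes, *rbcL*, *accD*, *psaI*, *ycf4*, *cemA* and *petA*, was lower in the NIL than in Cvi, though none of them was called between Cvi and L*er*. Of the 73 chloroplast probe sets, 34 were called lower in this comparison. *atpB*, the gene before *rbcL*, stood at −0.94 and just missed a call, so the run has no clear start there. *rbcL* encodes the large subunit of Rubisco, *accD* a subunit of the acetyl-CoA carboxylase and *ycf4* a factor for assembling photosystem I. *accD* read 6.59, 6.91 and 5.85 in L*er*, 6.13, 5.79 and 4.63 in the NIL and 7.71, 6.76 and 6.92 in Cvi. L*er* overlapped both other genotypes, while the NIL lay below Cvi throughout. *psaI* read 6.42, 6.42 and 6.38 in L*er*, 6.16, 5.90 and 4.65 in the NIL and 7.67, 6.80 and 6.83 in Cvi, with no overlap in any pair. The limma differences between the NIL and Cvi were −1.73 for *cemA* (SE 0.389, adjusted p = 0.01643), −1.61 for *accD* (SE 0.399, adjusted p = 0.02664) and −1.53 for *psaI* (SE 0.351, adjusted p = 0.01823), with −1.38 for *petA*, −1.11 for *ycf4* and −0.95 for *rbcL*.

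The size of the decreases in this run rested partly on single arrays. Without NIL replicate 3 the difference was −1.39 for *cemA* (adjusted p = 0.07314) and −1.17 for *accD* (adjusted p = 0.08763), neither of which then passed the limma test, and −1.07 for *psaI*, which did (adjusted p = 0.03206). *accD* also missed the test without NIL replicate 2 (−1.75, adjusted p = 0.06011). With Cvi replicate 1 and NIL replicate 3 both left out, the difference was −1.01 for *cemA*, −0.88 for *accD* and −0.79 for *psaI*.

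With every array included, other called decreases in the NIL reached most functions of the chloroplast genome. Many of these calls depended on single arrays. The chloroplast probe sets called lower fell from 34 to 15 without NIL replicate 3. They fell to 22 without NIL replicate 2 and to 31 without NIL replicate 1. Which of the genes below kept the call is not given here. In photosystem I, *psaB* of the reaction centre stood at −1.17 and the small subunit *psaJ* at −1.13, and *ycf3*, an assembly factor for that photosystem, at −0.99. In photosystem II, the core antenna genes *psbB* and *psbC* stood at −0.62 and −0.85 and the small subunit *psbZ* at −1.02. *petB* of cytochrome b6f was at −0.94 and *atpE* at −1.07, while *atpB* beside it, at −0.94, just missed the limma test (adjusted p = 0.06464). *rpoC1* and *rpoA*, subunits of the plastid RNA polymerase, were at −1.16 and −0.75. The ribosomal protein genes *rpl14*, *rpl16*, *rpl36*, *rpl32*, *rpl33* and *rpl20* ran from −1.34 to −0.51.

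**Figure D4:**
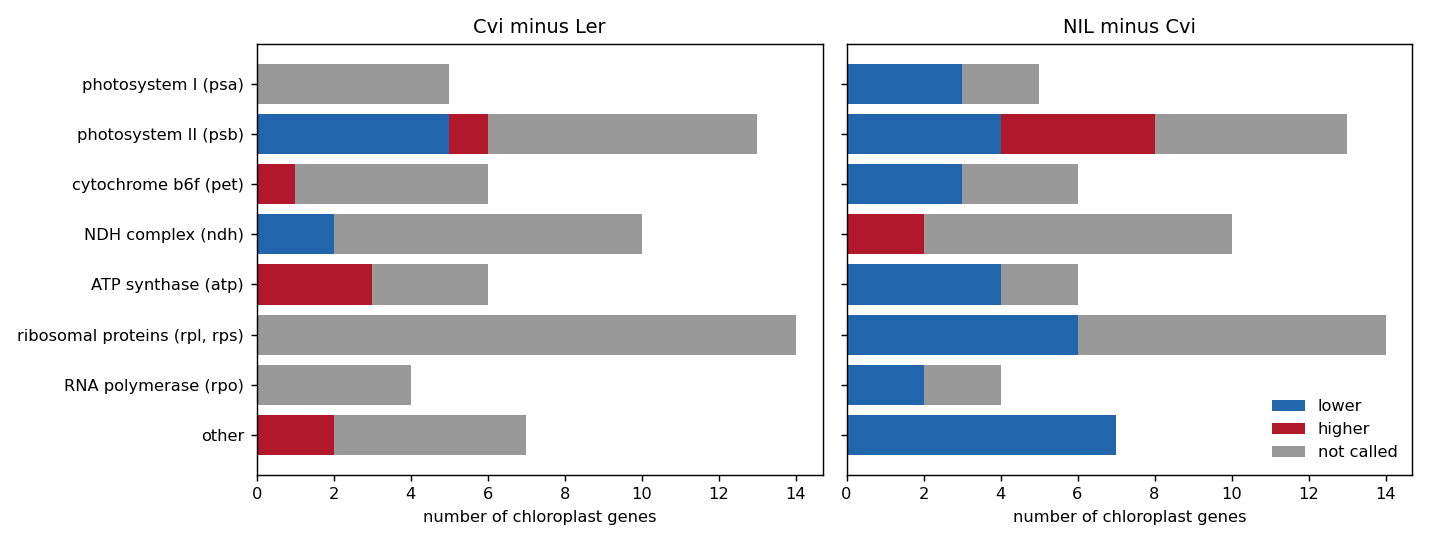
Number of named chloroplast genes (horizontal axis) called lower (blue), called higher (red) or not called (grey) in each group of genes, for Cvi minus L*er* (left) and NIL minus Cvi (right). The group called other holds *ccsA*, *clpP*, *rbcL*, *accD*, *cemA*, *ycf3* and *ycf4*. In the NIL against Cvi all 7 of these were lower, while in the NDH complex 2 of 10 were higher and none lower. Most of the NDH genes that were not called fell in the dim class. All counts are from the fit with every array included. Over the whole array, 13.0% of probe sets were called for Cvi minus L*er* and 10.8% for NIL minus Cvi.

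Counted by role, the NIL was lower than Cvi at 4 of 6 genes of the ATP synthase, 3 of 5 of photosystem I, 3 of 6 of cytochrome b6f, 6 of 14 ribosomal protein genes and 2 of 4 of the RNA polymerase. Over the whole array, 5.61% of probe sets were called lower and 5.23% higher. These counts by role are from the fit with every array included. Without NIL replicate 3 only 15 chloroplast probe sets were called lower, and their split by role is not given here. Photosystem II had 4 lower and 4 higher of 13. The NDH complex had no gene lower and 2 of 10 higher, and the differences of its other members ran down to −0.47. Of those others, *ndhF*, *ndhE*, *ndhJ*, *ndhH*, *ndhD*, *ndhK* and *ndhG* fell in the dim class and only *ndhC* did not. Their lack of a call therefore does not set this complex apart. Among the chloroplast probe sets with several entries, 5 of 8 were lower, 244940_at at −1.48, 244992_s_at at −1.43, 244988_s_at at −1.02, 244939_at at −0.59 and 244987_s_at at −0.55. Their entries repeat the symbol of 1 ribosomal protein gene, *rps12* (244940_at and 244939_at), *rps7* (244992_s_at), *rpl23* (244988_s_at) or *rpl2* (244987_s_at). The counts by role leave them out.

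Of the 12 mitochondrial genes only *ccmFN1* was called, and in this comparison alone, where 10.8% of the array was called. It read 10.23, 10.38 and 10.23 in L*er*, 10.09, 9.81 and 9.32 in the NIL and 11.05, 10.64 and 10.40 in Cvi. The 3 genotypes did not overlap, Cvi being highest and the NIL lowest, and the difference between the NIL and Cvi was −0.96 (SE 0.203, limma adjusted p = 0.01223). The complex I genes *nad4L*, *nad4*, *nad6*, *nad7* and *nad9* gave −0.33, −0.12, 0.24, −0.05 and −0.34, the cytochrome oxidase gene *cox2* −0.04 and the intron maturase gene *matR* −0.15. The cytochrome c maturation genes *ccmB*, *ccmFC* and *ccmFN2* gave −0.18, −0.21 and 0.04, and *mttB*, a membrane transport protein gene, −0.32. None of these 11 passed the limma test, and 8 of the 12 mitochondrial probe sets fell in the dim class.

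Among the 35 unannotated probe sets, 2 were called in the NIL against Cvi, both lower, against 10.8% of the array. 244979_at read 9.12, 9.40 and 8.60 in L*er*, 8.86, 8.44 and 8.45 in the NIL and 9.97, 9.37 and 9.63 in Cvi, a difference of −1.07 (SE 0.219, limma adjusted p = 0.01012). 244981_at read 6.15, 6.54 and 5.70 in L*er*, 5.85, 5.40 and 5.64 in the NIL and 7.42, 6.33 and 6.80 in Cvi, a difference of −1.22 (SE 0.274, adjusted p = 0.01657). In both, the NIL lay below Cvi on every array and L*er* overlapped both. The 5 probe sets annotated to nuclear genes of chromosome 2 gave no call in any comparison, with differences of −0.28 to 0.20.

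Few nuclear genes that act in the organelles could be read, since most had no named probe set. Of 20 listed nuclear genes for respiratory subunits and alternative oxidases, 6 were named and none was called in any comparison, with median differences of −0.12 for Cvi against L*er*, 0.01 for the NIL against L*er* and 0.13 for the NIL against Cvi. Of 3 organelle RNA polymerases, 1 was named, AT5G15700, which serves both organelles, at 0.21 in Cvi against L*er*. Of 3 organelle exoribonucleases, 1 was named, AT5G14580, the mitochondrial polynucleotide phosphorylase, at 0.37. Neither was called, and none of the 6 plastid sigma factors was named.

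The sequences of Cvi, L*er* and the NIL under the probes were not compared here, so a lower level of a transcript and a poorer match to its probes cannot be told apart. The probe sets with the suffix _s_at can also hybridize to more than 1 transcript.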

How the data were processed

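Root tip RNA of Cvi, L*er* and the NIL 170G-55-16 (3 arrays each) had been amplified with a kit that primes on poly(A) tails and hybridized to Affymetrix ATH1 arrays. The deposited values are linear hybridization intensities per probe set, normalized by the authors. MAS5 and RMA appear in the processing notes of the submitters, and their versions and roles are not given in the sources used here. After 64 control probe sets were left out of 22810, a linear model of the log2 intensities with 1 term, genotype, was fitted to the 9 arrays and moderated by eBayes (limma 3.58.1, R 4.3.3, two-sided), with Benjamini-Hochberg adjustment over 22746 probe sets. Calls had an adjusted p under 0.05. The script was tested on simulated data. Genes were named through the platform annotation and a RefSeq table of TAIR10.1 genes, from which no position but the order of genes was taken. The members, lists and rules were chosen with earlier results of these data known. Named are all called members with 1 gene, the 8 largest called differences per direction and comparison without overlap, the 5 brightest and 5 dimmest members, and the 3 farthest single arrays, and further members are named to fill a role or a run of neighbours, chosen after their values were seen. Alternatives were another normalization, a filter on dim probe sets, an added constant of 16, other variance models, a replicate block and single arrays left out. For arrays, their number limits the precision.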

Additional observations from a re-analysis of the deposited data

How the results depend on the processing

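No member that was called changed direction under any alternative. Of the 15 called between Cvi and L*er*, 7 kept the call in all 17 settings that were compared (*ndhI*, *ndhA*, *psbM*, *psbJ*, *psbE*, *psbF* and *psbI*), and of the 43 called between the NIL and Cvi, 15 did. The dim class, which held 7 of these 43, was left out in 1 of the settings. Its members could therefore not be among the 15. Leaving out 1 array at a time gave 7 to 20 calls for Cvi against L*er*. The 7 came without L*er* replicate 3, where 8.19% of the array was called, and the 20 without Cvi replicate 1, where 23.7% was. For the NIL against L*er* it gave 0 to 1 (1 without Cvi replicate 1). For the NIL against Cvi it gave 22 (without NIL replicate 3) to 49. The share of the array behind the 49 is not given here, so that count is not read as a result about the members. With Cvi replicate 1 and NIL replicate 3 both left out, Cvi against L*er* gave 24, where the array gave 23.5%. A fold of at least 2 left 9 for Cvi against L*er*, against 3.88% of the array, and 25 for the NIL against Cvi, against 3.39%. A fit to only the 6 arrays of the NIL and Cvi gave 24, with fewer arrays to estimate the spread. The share of the array called in that fit is not given here. With the dim class left out, the median difference over the 60 members that remained was 0.33 for Cvi against L*er*, −0.40 for the NIL against L*er* and −0.75 for the NIL against Cvi. With 16 added to the signal, the organelle level was 5.66 in L*er*, 5.52 in the NIL and 5.78 in Cvi, and after quantile normalization it was 5.26 in Cvi. Deviations of arrays with the same replicate number correlated from −0.259 to 0.232. They were not set against arrays with different numbers, so whether the replicate numbers pair the arrays was not tested. With the replicate number as a block, the counts were 15 (12 of them called without the block), 0 and 44 (40 called without it). For Cvi against L*er*, 11.1% of the array was called with the block and 13.0% without it. For the other comparisons the share with the block is not given here. Signal over background was not known, which limits the dim members most.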
